A study of Mus musculus with 224 samples.

Results

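The genes of the proteasome and its regulators were followed through 5 brain regions of mice exposed to ethanol vapor, ethanol drinking, both or neither. Members were all genes whose symbol on the platform started with Psma, Psmb, Psmc, Psmd, Psme, Psmf or Psmg followed by a digit, on probesets with 1 gene symbol. This rule took 49 of the 18193 genes with such a probeset. The 49 genes had 103 probesets, and each gene was read in a region from its brightest probeset there. By role they were 8 alpha and 7 beta subunits of the 20S core, 4 subunits of the immunoproteasome and thymoproteasome, 6 ATPases and 11 non-ATPase subunits of the 19S cap, 3 assembly chaperones of the cap and 4 of the core, and 4 activators or inhibitors. The rule also took 2 genes that encode no subunit (Psmc3ip and Psme3ip1). Psme2, a partner of Psme1, stood only on a probeset with several symbols and was not a member.

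The proteasome is the large protease that degrades ubiquitin-tagged proteins in every cell. Its 20S core holds the cutting sites inside a barrel of alpha and beta rings, and the 19S cap binds the ubiquitin chain, removes it and feeds the unfolded protein into the barrel. In neurons it takes part in the turnover of synaptic proteins, and on interferon signalling the catalytic beta subunits of new particles are replaced by the immunoproteasome subunits.

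All mice were male C57BL/6J, which arrived at 10 weeks of age, and each array held 1 region of 1 mouse. The CIE Drinking mice had ethanol vapor (chronic intermittent ethanol, CIE) for 16 h a day on 4 days a cycle and, between the cycles, a choice of 15% ethanol or water for 2 h a session. Both drinking groups first had 6 weeks of baseline drinking, and each chamber bout was followed by 72 h without ethanol. The CIE NonDrinking mice had the vapor with water only, the Air Drinking mice had air in the chambers with the same ethanol choice, and the Air NonDrinking mice had air and water only. By the paper's account, the drinking groups were nearer to their last ethanol at harvest than the CIE NonDrinking group. Contrasts of drinking groups with CIE NonDrinking mice thus also differ in time since ethanol, which cannot be told apart from drinking. The 5 regions were the central nucleus of the amygdala (CeA), the hippocampus (HPC), the prefrontal cortex (PFC), the bed nucleus of stria terminalis (BNST) and the accumbens (NAC), on 224 arrays in all with 8 to 12 arrays a group. All 4 groups were injected with pyrazole, which slows ethanol clearance, before chamber sessions, and the CIE groups with ethanol as well. Values are whole-tissue levels on the log2 scale, in which fewer cells of a type and less RNA per cell cannot be told apart.

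Promoter sequence was available for 41 of the 49 genes. The 2 windows shown were chosen because they hold a motif match and their genes encode catalytic subunits described here. Psmb7 to Psmb10, also described here, were not among the genes with a match. The windows come from RefSeq (GRCm38.p6), on the strand of the gene, from the 250 bases before its start. Capitals mark the match to TGACNNNGC, the core of the antioxidant response element bound by NRF1 and NRF2 (known activators of proteasome genes).
Psmb5 (chr14:54618009-54618068, minus strand): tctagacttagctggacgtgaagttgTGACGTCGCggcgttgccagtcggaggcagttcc
Psmb6 (chr11:70525297-70525356, plus strand): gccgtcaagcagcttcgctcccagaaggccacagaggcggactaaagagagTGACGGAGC
The motif was searched on both strands (N is any base). TGACNNNGC was found in 5 of the 41 members (12.2%; Psmb5, Psmb6, Psmc6, Psmd12 and Psmd9), against 11.5% of 27025 genes. The difference was not tested, and a match describes letters only.

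Proteasome genes varied little among mice of the same group. The median SD within groups over the 49 genes was between 0.07 (HPC) and 0.09 (CeA), against 0.12 (HPC) to 0.15 (CeA) over all genes. The members were also bright, with 28 of the 49 above the 90th percentile of probesets in every region. Their median level in PFC was 10.84, against 7.37 over all genes. The spread was not compared with that of genes of like signal. The members with wide spread were Psmb8 (SD of 0.24 to 0.37 over the regions), Psmb9 (0.21 to 0.34) and Psmd13 (0.18 to 0.25). Array medians were 6.07 to 6.14 in PFC, 7.01 to 7.07 in NAC, 6.87 to 6.95 in HPC, 6.84 to 6.92 in BNST and 6.82 to 6.88 in CeA, and each array correlated with the median array of its region at r of 0.981 or more. In CeA the mean of 4 choroid plexus markers ranged from 8.38 to 13.25 among arrays, with wide ranges in all 4 groups.

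Few proteasome genes were called different between groups. With limma on each region and a threshold of an adjusted p of 0.01, 3 of the 49 genes were called in at least 1 of the 6 comparisons of groups, and all 3 (Psmd13, Psmd7 and Psmd11) encode subunits of the lid of the 19S cap. The contrast CIE Drinking minus Air NonDrinking sets the group with both exposures against the group with neither, and 1 of 49 was called in PFC (background 0.61% of all genes), 2 in HPC (1.45%), 1 in CeA (0.318%), 0 in NAC (0.995%) and 0 in BNST (0.332%). At an unadjusted p of 0.05 these counts were 11 of 49 in PFC (22.45%, against 28.14% of all genes), 7 in HPC (14.29% against 17.1%), 9 in CeA (18.37% against 7.92%), 15 in NAC (30.61% against 16.57%) and 8 in BNST (16.33% against 10.83%). These shares lay below those of all genes in PFC and HPC and above them in the other regions, and the differences were not tested. Drinking among vapor-exposed mice (CIE Drinking minus CIE NonDrinking) gave 2 of 49 called in CeA (0.357% of all genes), and 0 in PFC (1.2%), NAC (0.011%), BNST (0.0886%) and HPC (0%), where limma gave 13, 11, 10 and 3 members an unadjusted p below 0.05 (26.53%, 22.45%, 20.41% and 6.12%, against 20.67%, 19.2%, 18.48% and 12.1% of all genes). For Air Drinking minus Air NonDrinking, 1 of 49 was called in PFC (1.32%), and none was called in another region, where the background was 0% in each and limma gave 5 (NAC), 10 (HPC), 6 (BNST) and 4 (CeA) members an unadjusted p below 0.05 (10.2%, 20.41%, 12.24% and 8.16%, against 5.42%, 6.47%, 11.37% and 4.44% of all genes). Calls of 1 or 2 genes describe those genes and are not a result about the list.

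In the other comparisons limma called no member in any region. Vapor among drinking mice (CIE Drinking minus Air Drinking) had no member called, and the background was 2.16% of all genes in PFC, 0.066% in NAC, 0.399% in HPC, 0.471% in BNST and 0.0111% in CeA, and between 6 (NAC and CeA) and 11 (PFC) members had an unadjusted p below 0.05, where all genes had 14.03% (CeA) to 24.48% (BNST). For CIE NonDrinking minus Air NonDrinking the background was 0.77% in PFC and 0% elsewhere, with 3 (NAC) to 8 (PFC and BNST) members below an unadjusted p of 0.05, where all genes had 5.46% (NAC) to 18.67% (PFC). For CIE NonDrinking minus Air Drinking it was 0.715% in PFC and 0% elsewhere, with 0 (BNST) to 10 (PFC) members below that p, where all genes had 2.79% (BNST) to 11.9% (PFC). The interaction of vapor and drinking was called for 0 members, against 3.04% of all genes in PFC and 0% elsewhere, with 1 (NAC, 2.04%) to 12 (BNST, 24.49%) members below an unadjusted p of 0.05, against 12.21% and 25.58% of all genes in these regions.

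The medians of the list stayed close to 0. The median log2 fold change of the 49 genes for CIE Drinking minus Air NonDrinking was 0.01 in PFC, -0.02 in NAC, 0.01 in HPC, 0.01 in BNST and 0.01 in CeA, where all genes had medians of -0.01, -0.03, -0.02, -0.01 and -0.03. In PFC the 95% interval of the log2 fold change lay within 0.32 on both sides of 0 for 46 of the 49 genes, and for 16538 of all 18193 genes. In HPC, 40 of the 49 genes were higher in Air Drinking than in Air NonDrinking mice, with a median of 0.04, where 48.97% of all genes were higher with a median near 0 (-0.0013). In the same region 39 of the 49 were also higher in CIE NonDrinking than in Air NonDrinking mice (median 0.03), against 50.59% of all genes, and both contrasts share the 8 Air NonDrinking arrays. The mean of the members on an array, centred on the region, was -0.06, 0.03 and 0.08 (lowest, median and highest) in Air Drinking and -0.05, -0.03 and 0.06 in Air NonDrinking mice of HPC, so the groups overlapped, and no member passed the threshold there. The 49 cytosolic ribosomal protein genes, another set for a large particle, had 29 of 49 genes higher in Air Drinking than in Air NonDrinking mice.

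**Figure D1:**
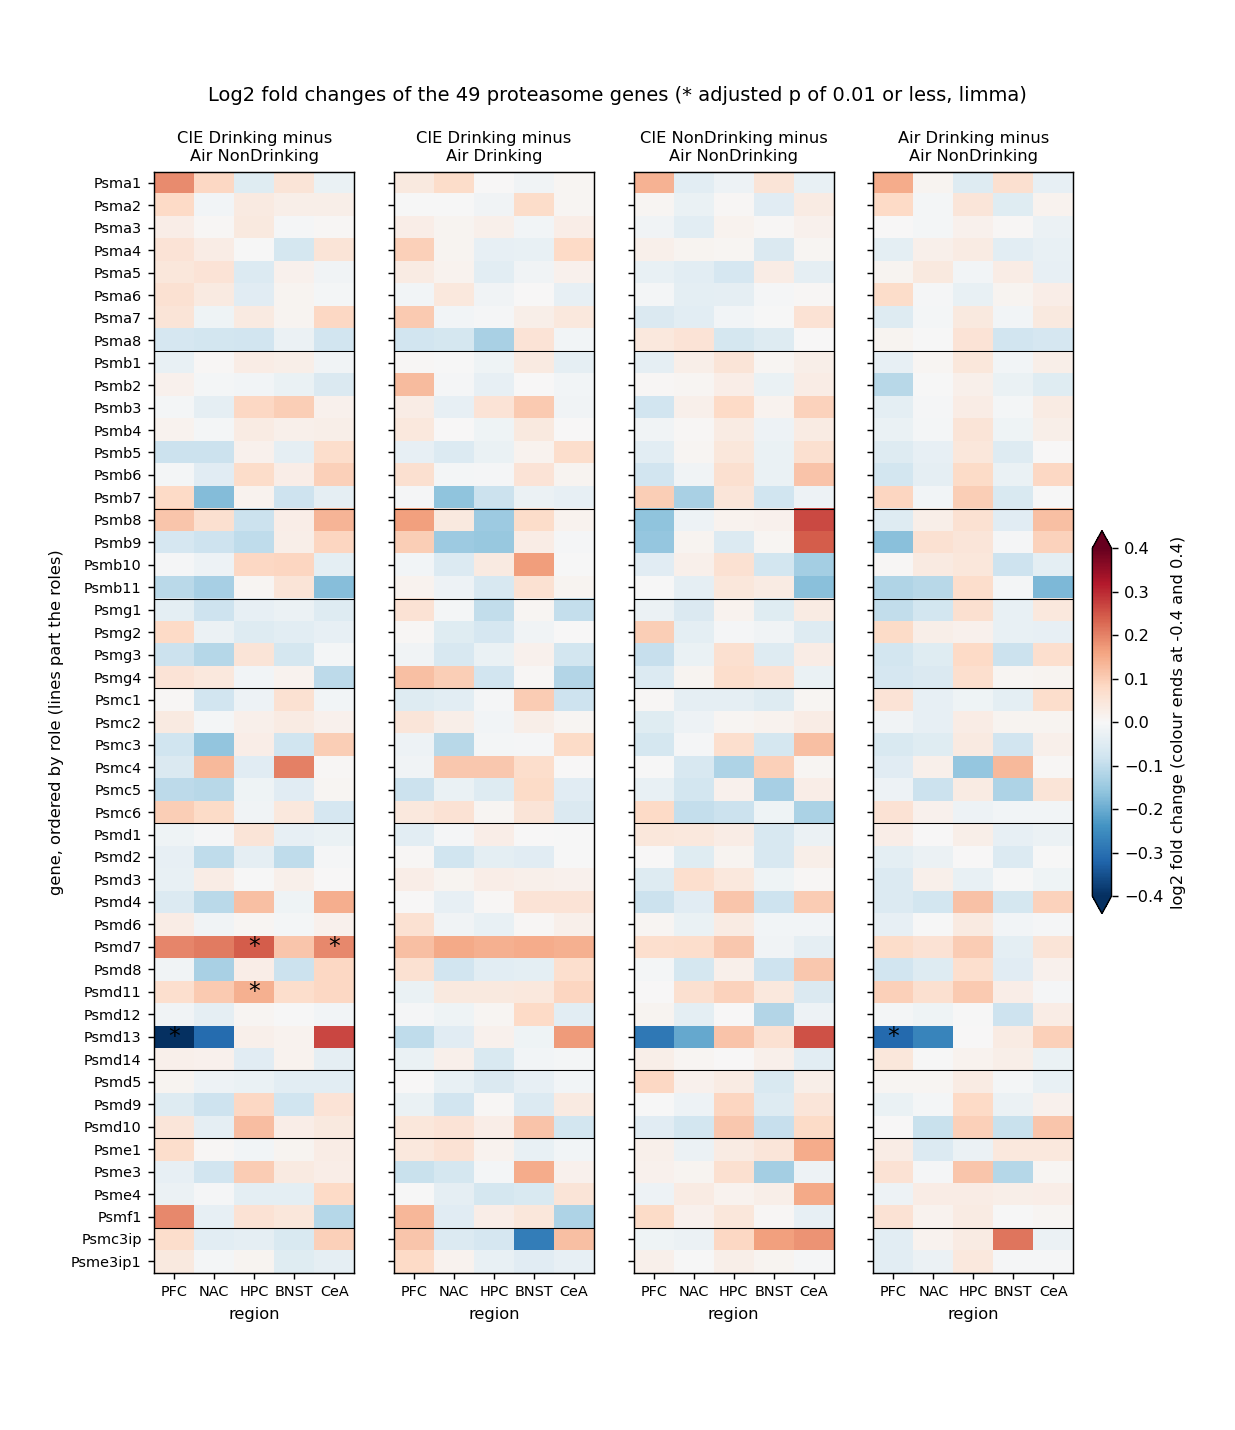
Log2 fold changes (colour, blue lower and red higher) of the 49 genes (rows, ordered by role) in the 5 regions (columns) for 4 comparisons (panels), with stars at an adjusted p of 0.01 or less. The field is pale for most genes, and Psmd13, Psmd7 and Psmd11 among the non-ATPase subunits of the 19S cap carry all of the stars in these 4 comparisons.

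Psmd13, a subunit of the 19S lid, was lower in PFC of ethanol-exposed mice than in PFC of ethanol-naive mice. Its level was 8.96, 9.06 and 9.58 (lowest, median and highest) on the 12 CIE Drinking arrays, 9.07, 9.34 and 9.52 on the 12 CIE NonDrinking arrays and 9.05, 9.25 and 9.52 on the 11 Air Drinking arrays, against 9.37, 9.60 and 9.89 on the 12 Air NonDrinking arrays. The Air NonDrinking arrays were high, all arrays of the 3 exposed groups lay below their mean, and the ranges still overlapped. Psmd13 fell by 0.41 on the log2 scale in CIE Drinking against Air NonDrinking mice (SE 0.07, limma adjusted p = 0.00129). In Air Drinking against Air NonDrinking mice it fell by 0.31 (SE 0.07, adjusted p = 0.00774). The difference between CIE NonDrinking and Air NonDrinking mice was -0.29 (SE 0.07) and missed the threshold with an adjusted p of 0.0124. Among the alternatives, this difference passed the threshold only when dim probesets were left out (-0.29, limma adjusted p = 0.00738). No difference among the 3 exposed groups passed the threshold, and the interaction was 0.18 (SE 0.10, adjusted p = 0.288). The call in Air Drinking mice missed the threshold without any 1 of 13 of its 23 arrays (adjusted p of 0.0109 to 0.0196), with log2 fold changes between -0.33 and -0.28 over all 23, and with only the arrays of both groups (adjusted p = 0.0122) or the mean of the gene's probesets (-0.17, adjusted p = 0.0275). The call in CIE Drinking mice was kept without each of its 24 arrays in turn.

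Psmd13 was also unevenly spread. The 12 CIE Drinking arrays of PFC fell into 9 arrays at 9.25 or lower and 3 arrays at 9.54 or higher, with a gap of 0.29 between them. In NAC the 11 CIE Drinking arrays held 7 at 9.12 or lower and 4 at 9.57 or higher, a gap of 0.45. Of the mice high in PFC, mice 9 and 17 were also high in NAC (9.59 and 9.57), while mouse 4 was not (9.12), and mice 1 and 10, high in NAC (9.63 and 9.60), were low in PFC (9.02 and 9.03). The split was not confined to CIE Drinking mice. In NAC the 12 Air Drinking arrays held 7 at 9.04 or lower and 5 at 9.37 or higher, a gap of 0.33. Over all groups the deviations of Psmd13 from the group mean correlated between PFC and NAC at r = 0.33 over 44 mice.

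A second probeset, 1437220_x_at, whose suffix marks probes that can bind other transcripts, was also called in PFC for CIE Drinking minus Air NonDrinking (-0.35, SE 0.07, adjusted p = 0.00365), among 2 of 103 member probesets called there (0.722% of all probesets). The remaining probesets of the gene were 1447843_at (-0.26, adjusted p = 0.0385) and 1445729_at (0.15, adjusted p = 0.122), both of lower signal. The genes whose deviations within groups were most like those of Psmd13 in all 5 regions were Pik3r3, Prmt1, 2610507B11Rik, Slc35e3, Matn4 and Hexim1 (lowest r over the regions 0.69 to 0.76). Of these, 2610507B11Rik (-0.31, adjusted p = 0.00129) and Hexim1 (-0.24, adjusted p = 0.00152) were also called lower in PFC in this comparison (0.61% of all genes were called). These 6 genes were chosen after their values were seen, and values of 1 array share its hybridization. Their part in the Psmd13 result was not tested.

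**Figure D2:**
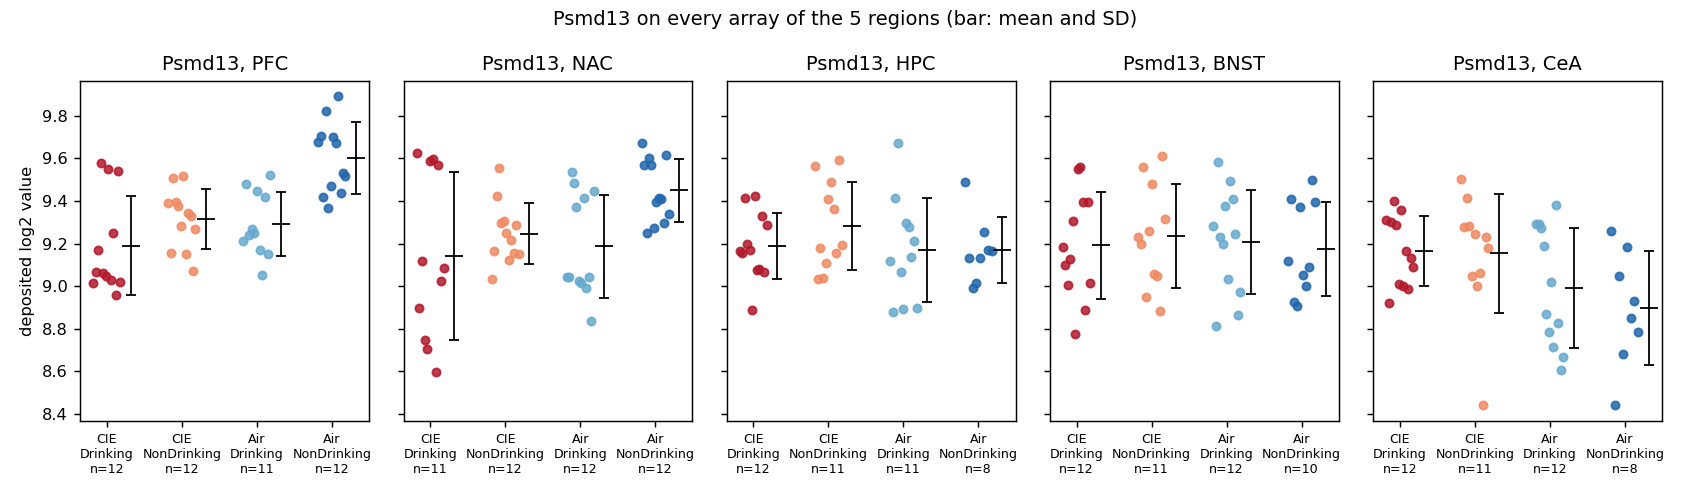
Psmd13 level (deposited log2 value) on each array of the 5 regions, by group, with the mean and SD as a bar. In PFC the Air NonDrinking arrays sit at 9.37 to 9.89 and the CIE Drinking arrays mostly at 9.25 or lower with 3 at 9.54 or higher. In NAC the CIE Drinking arrays part into 7 low and 4 high arrays, and the Air Drinking arrays into 7 and 5.

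The PFC arrays also varied in markers of neighbouring tissue. Of the 5 measured markers of striatal projection neurons none was called in PFC for CIE Drinking minus Air NonDrinking, and their mean level ranged from 7.69 to 9.42 on CIE Drinking arrays, from 7.51 to 9.31 on CIE NonDrinking, from 7.61 to 9.31 on Air Drinking and from 7.66 to 9.11 on Air NonDrinking arrays. Of the 5 markers of cortical excitatory neurons, Rorb was called higher in Air Drinking than in Air NonDrinking mice (0.59, adjusted p = 0.00287). No listed marker was called in PFC for CIE Drinking minus Air NonDrinking. The part of tissue composition in the Psmd13 result was not tested.

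Among the other regions, Psmd13 pointed the same way in NAC, stayed near 0 in HPC and BNST and pointed the other way in CeA, with none called. It was -0.31 in NAC for CIE Drinking minus Air NonDrinking (SE 0.10, adjusted p = 0.0593), 0.02 in HPC (SE 0.09), 0.02 in BNST (SE 0.10) and 0.27 in CeA (SE 0.11, adjusted p = 0.277). The difference itself was tested between regions, and PFC minus CeA was -0.68 (SE 0.14, adjusted p = 0.000602). PFC and CeA arrays came partly from the same mice, and a fit with the mouse as a block gave an adjusted p of 0.000445.

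Psmd7, the lid subunit that pairs with the deubiquitinase Psmd14, was higher in HPC and CeA of CIE Drinking mice. In HPC its level was 10.12, 10.29 and 10.39 (lowest, median and highest) on 12 CIE Drinking arrays, 9.94, 10.11 and 10.34 on 11 CIE NonDrinking, 9.84, 10.12 and 10.38 on 11 Air Drinking, and 9.91, 10.04 and 10.15 on 8 Air NonDrinking arrays. All 12 CIE Drinking arrays lay above the Air NonDrinking mean, with a small overlap of the ranges. Psmd7 rose by 0.24 in HPC for CIE Drinking against Air NonDrinking mice (SE 0.06, adjusted p = 0.00366). This call was lost without Air NonDrinking mouse 50, 52 or 55 (log2 fold changes of 0.23 to 0.24, adjusted p of up to 0.0133).

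In CeA, Psmd7 was 9.60, 9.71 and 9.95 on 12 CIE Drinking arrays, 9.41, 9.51 and 9.64 on 11 CIE NonDrinking, 9.43, 9.61 and 9.65 on 12 Air Drinking, and 9.42, 9.51 and 9.74 on 8 Air NonDrinking arrays. The CIE Drinking arrays were high, and all 12 lay above the mean of each of the other groups. Psmd7 rose by 0.23 against CIE NonDrinking mice (SE 0.04, adjusted p = 0.000214), which held without each of the 23 arrays in turn. Against Air NonDrinking mice it rose by 0.19 (SE 0.04, adjusted p = 0.00276), a call that missed the threshold without Air NonDrinking mouse 48 (0.17, adjusted p = 0.0133) and with only the arrays of both groups (adjusted p = 0.0338). Against Air Drinking mice the difference was 0.14 (SE 0.04, adjusted p = 0.0426).

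The same probeset of Psmd7 was above 0 in the remaining regions too, without passing the threshold. Its value for CIE Drinking minus Air NonDrinking was 0.20 in PFC (SE 0.07, adjusted p = 0.0736), 0.21 in NAC (SE 0.07, adjusted p = 0.0678) and 0.11 in BNST (SE 0.06, adjusted p = 0.362). Against Air Drinking mice the CIE Drinking mice differed by between 0.12 (PFC) and 0.15 (NAC and BNST) in the 5 regions, with adjusted p of 0.0426 or more. The regions come largely from the same mice, so these 5 values are not independent. Of the other probesets of the gene, 1432820_at gave -0.02 in HPC (SE 0.06) and 0.01 in CeA (SE 0.06) for CIE Drinking minus Air NonDrinking, and the dim 1454368_at gave 0.09 and 0.06, so the Psmd7 result rests on 1 probeset. With the mean of its probesets Psmd7 was not called for CIE Drinking minus Air NonDrinking in HPC (0.11, adjusted p = 0.0960) and CeA (0.09, adjusted p = 0.417), or for CIE Drinking minus CIE NonDrinking in CeA (0.13, adjusted p = 0.0392).

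Psmd11, the lid subunit that clamps the lid to the core and the ATPase ring, followed Psmd7. In HPC it was 11.98, 12.04 and 12.12 on CIE Drinking arrays, 11.91, 11.98 and 12.09 on CIE NonDrinking, 11.80, 12.02 and 12.10 on Air Drinking, and 11.79, 11.90 and 11.99 on Air NonDrinking arrays. The CIE Drinking and Air NonDrinking ranges overlapped only at their ends. Psmd11 rose by 0.14 in HPC for CIE Drinking against Air NonDrinking mice (SE 0.03, adjusted p = 0.00225), and the call was lost without Air NonDrinking mouse 55 (0.13, adjusted p = 0.0105) and with the mean of its probesets (0.06, adjusted p = 0.126). A second probeset, 1429370_a_at, was also called there (0.18, SE 0.03, adjusted p = 0.000537), among 4 of 103 member probesets called in that comparison (3.63% of all probesets). The next probeset, 1456059_at, gave 0.12 (adjusted p = 0.0210), and 1440253_at gave -0.07 (adjusted p = 0.309).

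In CeA, Psmd11 was 11.75, 11.92 and 11.99 on CIE Drinking arrays and 11.68, 11.77 and 11.88 on CIE NonDrinking, 11.74, 11.82 and 11.95 on Air Drinking, and 11.73, 11.81 and 11.97 on Air NonDrinking arrays. The medians of both air groups lay above that of CIE NonDrinking mice. Of the 12 CIE Drinking arrays 11 lay above the CIE NonDrinking mean, and the ranges overlapped. Psmd11 rose by 0.14 in CIE Drinking against CIE NonDrinking mice (SE 0.03, adjusted p = 0.00399). None of its other probesets was called there. The brighter of them gave -0.003 (1440253_at, adjusted p = 0.986), 0.05 (1429370_a_at, adjusted p = 0.415) and 0.02 (1456059_at, adjusted p = 0.831). This call thus rests on 1 probeset. The call was lost without CIE NonDrinking mouse 34 (0.13, adjusted p = 0.0116), with only the arrays of both groups (adjusted p = 0.0116) and with the mean of its probesets (0.04, adjusted p = 0.437). CIE Drinking minus Air NonDrinking was 0.08 (adjusted p = 0.245). Within groups, Psmd7 and Psmd11 moved together across arrays, with r of 0.69 in PFC, 0.53 in NAC, 0.60 in HPC, 0.59 in BNST and 0.40 in CeA over 42 to 47 arrays a region, values of 1 hybridization each. Psmd13 ran against both in PFC (r of -0.64 with Psmd7 and -0.61 with Psmd11), and in the other regions these r lay between -0.16 and 0.34. The median r over all pairs of members was between 0.10 (PFC) and 0.23 (HPC). Psmd7 was closer to Psma4 in NAC (0.67), Psmd10 in HPC (0.64), Psmd8 in BNST (0.81) and Psmd6 in CeA (0.59) than to Psmd11. The genes most like Psmd11 in all 5 regions, chosen after their values were seen, were Kif3a, Ankrd12, Nceh1, Crebbp, Cplx2 and 5730455P16Rik (lowest r over the regions 0.46 to 0.58). All but 5730455P16Rik were called higher in HPC for CIE Drinking minus Air NonDrinking, where 1.45% of all genes were called. The largest of these was Crebbp, a histone acetyltransferase (0.68, adjusted p = 0.000348), which was also called in CeA (0.50, adjusted p = 0.00156). The genes most like Psmd7, chosen in the same way, were Map1b, Cars, Pde1a, Pcmt1, Csmd1 and Fbxw7 (lowest r 0.42 to 0.50). Of these, only Map1b (0.46, adjusted p = 0.00254) and Fbxw7 (0.29, adjusted p = 0.00132) were called higher in HPC, and none was called in CeA.

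Cell type markers were read in the same comparisons. In HPC the microglial marker Cx3cr1 was called higher in CIE Drinking than in Air NonDrinking mice (0.34, adjusted p = 0.00309), 1 of 5 microglial markers, whose mean level ranged from 9.65 to 10.00 on CIE Drinking and from 9.63 to 10.01 on Air NonDrinking arrays. In CeA no listed marker was called for CIE Drinking minus CIE NonDrinking, but list medians lay between -0.83 (choroid plexus) and 0.48 (cortical excitatory neurons). The 6 oligodendrocyte markers had a median of -0.28, and their mean level ranged from 10.41 to 12.05 on CIE Drinking and from 10.69 to 11.91 on CIE NonDrinking arrays. The choroid plexus mean ranged from 8.99 to 13.25 on CIE Drinking and from 9.64 to 13.15 on CIE NonDrinking arrays. Their part in the Psmd7 and Psmd11 results was not tested.

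**Figure D3:**
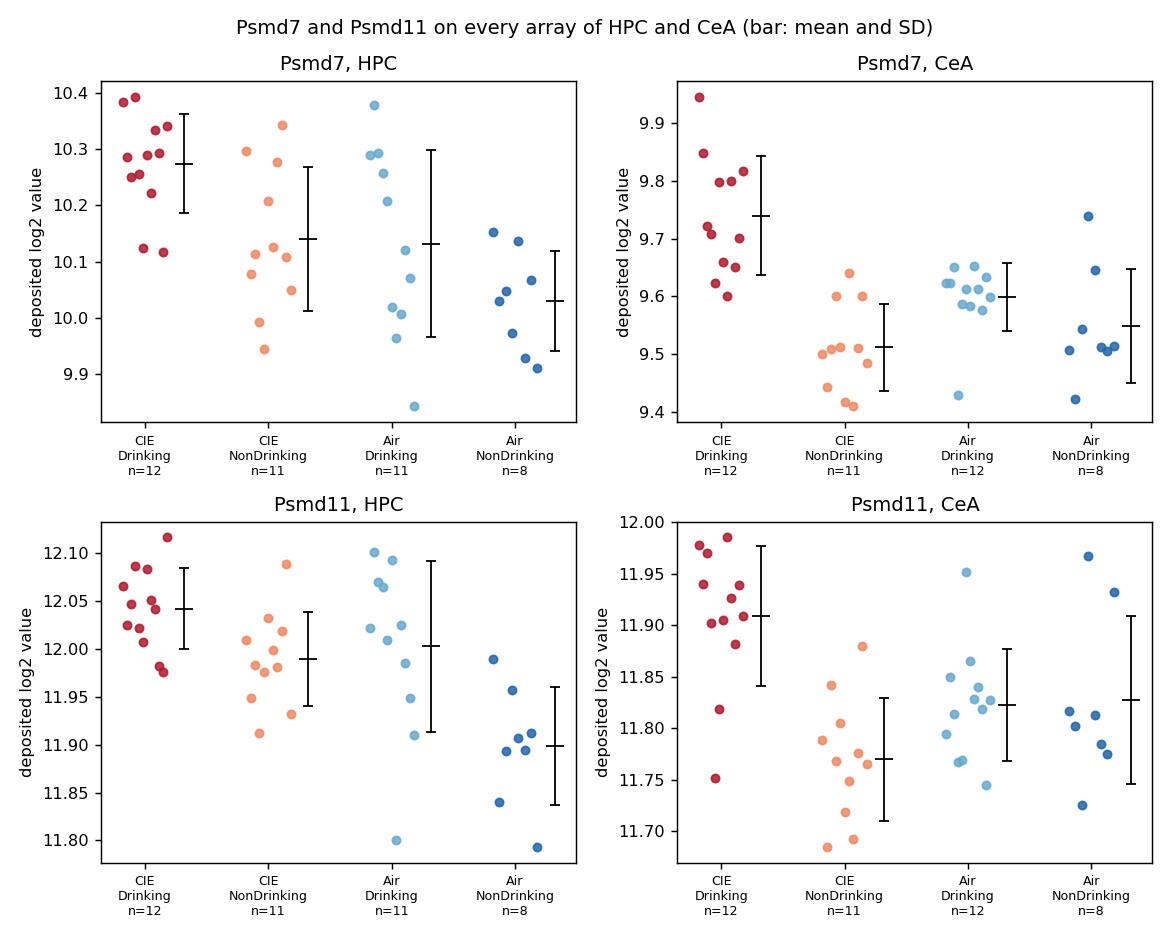
Levels (deposited log2 values) of Psmd7 (top row) and Psmd11 (bottom row) on each array of HPC and CeA, by group, with the mean and SD as a bar. The CIE Drinking arrays of Psmd7 in CeA start at 9.60, where the CIE NonDrinking arrays end at 9.64, and each panel shows overlap between groups.

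**Figure D4:**
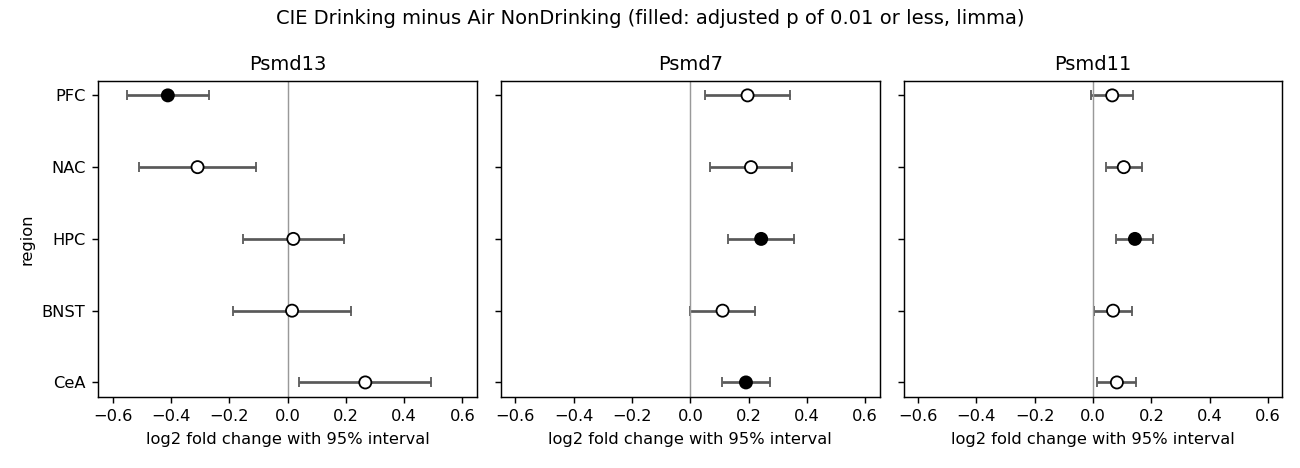
Log2 fold changes for CIE Drinking minus Air NonDrinking with 95% intervals for Psmd13, Psmd7 and Psmd11 in the 5 regions, filled where the adjusted p was 0.01 or less. Psmd13 lies at -0.41 in PFC and 0.27 in CeA, while Psmd7 and Psmd11 lie above 0 in all 5 regions.

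None of the 3 constitutive catalytic subunits was called in any comparison. Psmb5, which carries the chymotrypsin-like site, was 11.82, 11.87 and 11.96 on the 12 CIE Drinking arrays of PFC, 11.85, 11.90 and 12.03 on CIE NonDrinking, 11.83, 11.90 and 12.06 on Air Drinking and 11.89, 11.96 and 12.06 on Air NonDrinking arrays. The ranges of all 4 groups overlapped, and CIE Drinking minus Air NonDrinking was -0.09 (SE 0.03, adjusted p = 0.0359). In the other regions this contrast of Psmb5 lay between -0.09 (NAC) and 0.07 (CeA). Psmb6, with the caspase-like site, lay between -0.04 (NAC, SE 0.03) and 0.09 (CeA, SE 0.04) for CIE Drinking minus Air NonDrinking. Psmb7, with the trypsin-like site, was -0.17 in NAC (SE 0.05, adjusted p = 0.0308) and between -0.08 (BNST) and 0.08 (PFC) elsewhere. The NAC value passed the threshold with array weights (-0.17, adjusted p = 0.000736), with only the arrays of both groups (-0.17, adjusted p = 0.00806) and with repeated quantile normalization (-0.19, adjusted p = 0.00573). Within groups Psmb5 and Psmb6 correlated across arrays at r of 0.50 in PFC to 0.74 in CeA, values of 1 hybridization each. A link to their promoter letters was not tested. The median r over pairs of 20S alpha and beta subunits (without Psma8) was 0.12 in PFC and 0.45 in CeA.

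The interferon-inducible catalytic subunits varied widely among mice without a called difference between groups in the fit without array weights. Psmb8, which replaces Psmb5 in the immunoproteasome, was 7.14, 7.43 and 7.64 on CIE Drinking arrays of PFC, 6.81, 7.18 and 7.49 on CIE NonDrinking, 6.94, 7.21 and 7.88 on Air Drinking and 6.76, 7.40 and 7.81 on Air NonDrinking arrays. All groups overlapped, and the differences in PFC were 0.11 for CIE Drinking minus Air NonDrinking (SE 0.09, adjusted p = 0.445) and 0.27 for CIE Drinking minus CIE NonDrinking (SE 0.09, adjusted p = 0.0725). In CeA it was 7.52, 7.95 and 8.64 on CIE Drinking, 7.80, 8.10 and 8.82 on CIE NonDrinking, 7.58, 7.92 and 8.87 on Air Drinking, and 7.49, 7.69 and 8.76 on Air NonDrinking arrays, again with full overlap. Its SD within groups was 0.24 in PFC and 0.37 in CeA.

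Psmb9, which replaces Psmb6, varied as much, with SDs within groups of 0.21 (NAC) to 0.34 (CeA). Its difference for CIE Drinking minus Air NonDrinking was -0.07 in PFC (SE 0.10), -0.08 in NAC (SE 0.08), -0.10 in HPC (SE 0.14), 0.02 in BNST (SE 0.10) and 0.09 in CeA (SE 0.15). Psmb10, which replaces Psmb7, lay between -0.04 (CeA, SE 0.07) and 0.09 (BNST, SE 0.07) in this contrast. It was at 0.17 in BNST for CIE Drinking minus Air Drinking (SE 0.07, adjusted p = 0.120). In limma with array weights this BNST value passed the threshold (0.23, adjusted p = 0.00248), as did the interaction there (0.30, adjusted p = 0.00694). Psmb10 passed it in no other alternative. Psmb11, the thymus form of the same subunit as Psmb5, was among the dim probesets.

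Psmb8 and Psmb9, which lie near each other in the region of the major histocompatibility complex, moved together from mouse to mouse. Their deviations from the group mean correlated at r = 0.86 in PFC, 0.84 in NAC, 0.95 in HPC, 0.92 in BNST and 0.94 in CeA, over 42 to 47 arrays each, while Psmb8 with Psmb10 lay between 0.11 (PFC) and 0.67 (BNST), Psmb9 with Psmb10 between -0.03 (PFC) and 0.53 (BNST), and Psmb8 with Psmb5 between -0.36 (CeA) and 0.24 (HPC). The genes most like Psmb9 in all 5 regions, by the lowest r over the regions among 17924 genes and chosen after their values were seen, were Psmb8, Igtp, Gbp6, AW112010, B2m and Irgm2 (lowest r of 0.76 to 0.84). Igtp, Gbp6 and Irgm2 encode interferon-inducible GTPases, and B2m is the light chain of class I histocompatibility molecules. None of these was called for CIE Drinking minus Air NonDrinking in PFC, HPC or CeA (0.61%, 1.45% and 0.318% of all genes).

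Levels of Psmb9 and Psmb8 also correlated between regions of the same mouse. Over pairs of arrays with the same mouse number (38 to 44 mice for a pair of regions), the deviations of Psmb9 correlated positively in 10 of 10 pairs of regions, with r of 0.28 to 0.81 and a median of 0.51. For Psmb8 the median was 0.44, with 10 of 10 pairs positive. Psmb10 had a median of 0.20 with 7 of 10 pairs positive and a lowest r of -0.32, and Psmd13 a median of 0.19. The median over the 49 genes was 0.0036, against 0.016 over all genes. The 51 mouse numbers are taken as mice from the labels, and each stood in 1 treatment group. Single mice stood out, and Air Drinking mouse 31 was the highest of its group in every region for both genes. Its deviations were 0.65 (PFC) to 0.997 (CeA) for Psmb9 and 0.60 (PFC) to 0.88 (BNST) for Psmb8. Air NonDrinking mouse 45 was the highest of its group for Psmb9 in HPC (0.74) and CeA (0.88), but not in PFC (0.12). The r values were not computed without these mice, so how far they rest on them was not tested.

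**Figure D5:**
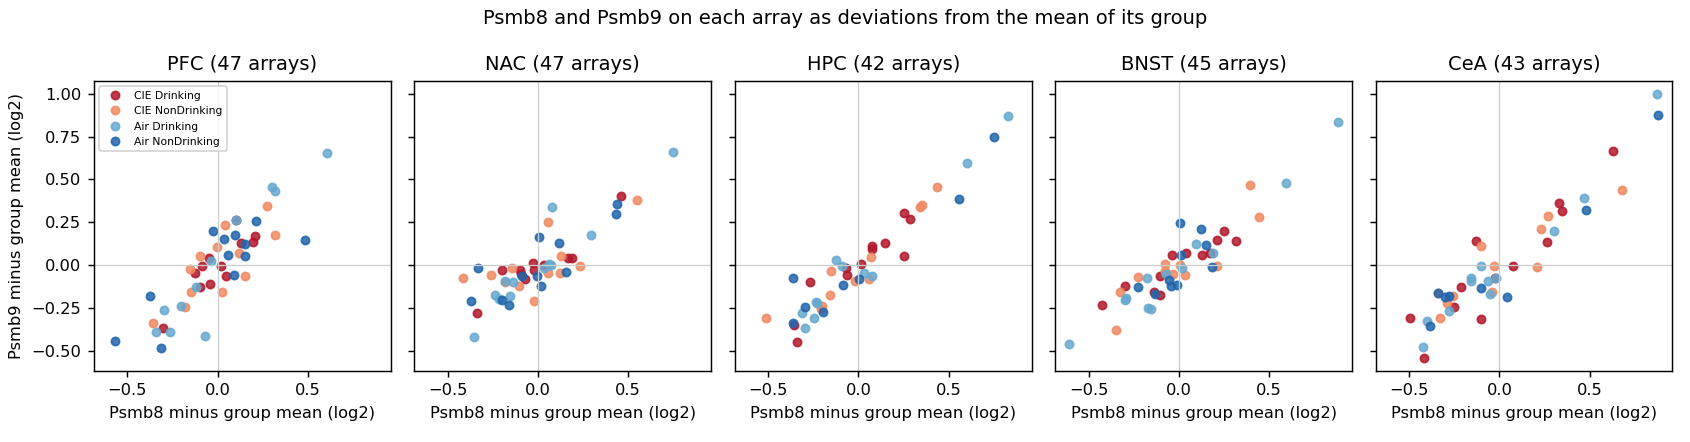
Psmb8 (horizontal) and Psmb9 (vertical) on each array as deviations from the group mean on the log2 scale, in the 5 regions, with colours for the 4 groups. Points of all 4 groups lie along 1 diagonal in each region, and the r values are 0.84 to 0.95.

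The rings, the ATPases and the regulators showed no called gene. The 8 alpha subunits for CIE Drinking minus Air NonDrinking had a median of 0.05 in PFC, with 7 of 8 above 0 and a highest value of 0.19 (Psma1, adjusted p = 0.0193). In the other regions their medians lay between -0.02 (HPC) and 0.02 (NAC). The 6 ATPases had medians between -0.04 (NAC) and 0.04 (BNST). The largest of their values in PFC was that of Psmc5, the ATPase also known as Rpt6, at -0.10 (SE 0.02, adjusted p = 0.0116). It passed the threshold in 4 of the 5 alternatives (adjusted p of 0.00410 to 0.00875) and not with only the arrays of both groups. The 4 assembly chaperones of the core had medians between -0.05 (NAC) and 0.01 (PFC), and the activators and their inhibitor Psmf1 (PI31) between -0.02 (NAC) and 0.03 (CeA).

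Some members were called only on a probeset other than their brightest. For Psmb3, a structural beta subunit, 1417052_at was called in PFC for CIE Drinking minus Air Drinking (0.20, SE 0.04, adjusted p = 0.00228), the 1 member probeset called there (1.87% of all probesets), and for Air Drinking minus Air NonDrinking (-0.18, SE 0.04, adjusted p = 0.00714), 1 of 2 called there (1.4%). For Psma6, an alpha subunit, the dim 1435316_at was called in HPC for CIE Drinking minus Air NonDrinking (-0.31, SE 0.08, adjusted p = 0.00756). For Psme4, the nuclear activator PA200, the dim 1443116_at was called for CIE Drinking minus Air NonDrinking in NAC (0.54, SE 0.11, adjusted p = 0.00107), the 1 member probeset called there (2.71% of all probesets). The same probeset was called in CeA against Air NonDrinking (0.42, SE 0.09, adjusted p = 0.00400) and CIE NonDrinking mice (0.41, SE 0.08, adjusted p = 0.00249), among 2 (1.86%) and 3 (1.64%) of 103 member probesets. For Psme3, the nuclear activator PA28 gamma, 1418078_at was called for the interaction in PFC (-0.42, SE 0.11, adjusted p = 0.00809), the 1 member probeset called (2.92%). The brightest probesets of these 4 genes were not called in those comparisons, so the probesets of a gene disagreed.

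Differences between regions in the response were tested for PFC against each other region. For CIE Drinking minus Air Drinking, 6 tests of members were called, in Psme3ip1 (PFC minus BNST, CeA and HPC), Psme3 (BNST), Psmg4 (CeA) and Psmb2 (HPC), where 2.34%, 4.22% and 1.42% of all genes were called for PFC minus BNST, CeA and HPC. No member was called by limma for PFC minus NAC (0.547%), where 8 had an unadjusted p below 0.05. The share of all genes at that unadjusted p was not computed, so the 8 have no background. Psmb2, a beta subunit, was 0.13 in PFC and -0.03 in HPC, a difference of 0.16 (SE 0.04, adjusted p = 0.00715). Psmg4, a chaperone of core assembly, was 0.12 in PFC and -0.12 in CeA, a difference of 0.24 (SE 0.06, adjusted p = 0.00400). Psme3 was -0.09 in PFC and 0.15 in BNST, a difference of -0.24 (SE 0.06, adjusted p = 0.00900).

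For CIE Drinking minus Air NonDrinking, the background was 1.56% of all genes for PFC minus CeA and 2.45% for PFC minus HPC. Beside Psmd13, Psma1 was 0.19 in PFC against -0.03 in CeA and -0.05 in HPC, differences of 0.22 (SE 0.05, adjusted p = 0.00571) and 0.24 (SE 0.05, adjusted p = 0.00148). Psmd4, the ubiquitin receptor of the cap, was -0.05 in PFC and 0.15 in CeA, a difference of -0.20 (SE 0.05, adjusted p = 0.00819). Here 3 of 49 members were called for PFC minus CeA and 1 of 49 for PFC minus HPC. None was called for PFC minus NAC (0.0614% of all genes) and PFC minus BNST (0.34%). In these, 3 and 7 members had an unadjusted p below 0.05 in limma. The share of all genes at that unadjusted p was not computed, so these 2 counts have no background.

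Among 25 measured genes that bind or regulate the proteasome or tag its substrates, 5 were called in at least 1 comparison, with at most 2 of 25 in a single one. Of all genes, 1.45% were called in HPC and 0.995% in NAC for CIE Drinking minus Air NonDrinking. In PFC it was 2.16% for CIE Drinking minus Air Drinking and 1.2% for CIE Drinking minus CIE NonDrinking. Air Drinking minus Air NonDrinking had 1.32% in PFC, and the interaction 3.04%. The calls describe the genes named and are not a result about this list. Ecpas, which ties the cap to the core, was lower in HPC of CIE Drinking than of Air NonDrinking mice (-0.17, SE 0.03, adjusted p = 0.000452), as was Ngly1, the deglycosylase that activates NRF1 (-0.13, SE 0.03, adjusted p = 0.00380). Ube3a, a ubiquitin ligase known from Angelman syndrome, was higher in NAC for CIE Drinking minus Air NonDrinking (0.19, SE 0.05, adjusted p = 0.00810) and in PFC for Air Drinking minus Air NonDrinking (0.23, SE 0.04, adjusted p = 0.000844). Ube3c, a ligase found on the proteasome, was lower in PFC of CIE Drinking mice against Air Drinking (-0.14, SE 0.03, adjusted p = 0.000755) and against CIE NonDrinking mice (-0.15, SE 0.03, adjusted p = 0.000239), and its interaction was -0.22 (SE 0.04, adjusted p = 0.000128). Sqstm1, the autophagy receptor p62, was lower in PFC of Air Drinking than of Air NonDrinking mice (-0.25, SE 0.04, adjusted p = 0.000379), with an interaction of 0.23 (SE 0.06, adjusted p = 0.00691).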

How the data were processed

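RNA was measured on Affymetrix mouse whole-genome expression arrays, each with 1 region of 1 mouse. The deposited log2 values were made by the authors with RMA, quantile normalization per region and ComBat for hybridization batch. Batches are not given in the sources used here, so no within-batch value could be computed and the fit takes the corrected values as measured. GEO's platform annotation gave 34945 probesets 1 symbol, 932 several and 9160 none.

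Groups and mouse numbers were read from the labels. In every region limma 3.58.1 (R 4.3.3) was fitted over the whole table with a mean for each of the 4 groups, with Benjamini-Hochberg adjustment of its two-sided p-values for each region and comparison (threshold 0.01). Regional differences used all 224 arrays, with and without the mouse number as a block. The fit was tested on simulated data for CIE Drinking minus Air NonDrinking, with changes added to probesets drawn from all probesets. Of 100 changes of 0.25 on the log2 scale, limma called 53 in PFC and 24 in CeA. Of 100 changes of 0.5 it called 99 and 73. A gene that was not called can thus still differ. No depth applies to arrays, and their number limits the precision.

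Named genes were members called in at least 1 comparison, Psmb5 to Psmb10, and called partners. Other genes and probesets were named after their values were seen. The members and lists were chosen with earlier results of these data known. Alternatives left out dim probesets, kept only the arrays of both groups compared, weighted arrays, repeated the quantile normalization, or averaged a gene's probesets. Leaving out single arrays was added after seeing the data.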

Additional observations from a re-analysis of the deposited data

Results flagged for a closer look

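Of 27 sets of 8 to 10 arrays (a gene in a group) that were looked at for a value far from the others, 1 was found, where chance alone gives about 1 in 20: Psmb6 in CeA of Air NonDrinking mice had a lowest array at 11.02, and the next array stood at 11.19.

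The other entries are members whose response differed between PFC and another region in a direct test. For CIE Drinking minus Air Drinking, the PFC value minus the other region's was 0.13 (BNST), 0.11 (CeA) and 0.11 (HPC) for Psme3ip1, -0.24 (BNST) for Psme3, 0.24 (CeA) for Psmg4 and 0.16 (HPC) for Psmb2. For CIE Drinking minus Air NonDrinking it was -0.68 (CeA) for Psmd13, 0.22 (CeA) and 0.24 (HPC) for Psma1 and -0.20 (CeA) for Psmd4.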

How the results depend on the processing

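No result changed direction under the alternatives run. Counts of members called moved by over 1.5 times in these cases, and with array weights the count for CIE Drinking minus Air NonDrinking in HPC was 3 in place of 2 (Psmb3 added). With array weights they were 4 for CIE Drinking minus Air Drinking, 2 for CIE Drinking minus Air NonDrinking, 1 for CIE NonDrinking minus Air Drinking and 1 for the interaction in PFC, 3 for CIE Drinking minus Air NonDrinking in NAC, and 7 each for CIE Drinking minus Air Drinking and the interaction in BNST. Without dim probesets they were 1, 1 and 2 in PFC for CIE Drinking minus Air Drinking, CIE NonDrinking minus Air NonDrinking and CIE Drinking minus Air NonDrinking. With the mean of a gene's probesets they were 2 in PFC, 1 in NAC, 0 in HPC and 0 in CeA for CIE Drinking minus Air NonDrinking, 0 for Air Drinking minus Air NonDrinking and 1 for the interaction in PFC, and 0 for CIE Drinking minus CIE NonDrinking in CeA. With only the arrays compared they were 0 for Air Drinking minus Air NonDrinking in PFC, 1 in NAC and 0 in CeA for CIE Drinking minus Air NonDrinking, and 1 for CIE Drinking minus CIE NonDrinking in CeA. With quantile normalization repeated they were 2 in PFC and 1 in NAC for CIE Drinking minus Air NonDrinking. The cause was not tested. The share of all genes called was not computed under these alternatives. The counts therefore have no background and are not a result about the list. Psmd13 in PFC for CIE Drinking minus Air NonDrinking was called in each of these settings. Leaving out 1 array gave 1 to 2 members in PFC, 0 to 3 in HPC and 0 to 1 in CeA for CIE Drinking minus Air NonDrinking, 0 to 2 in PFC for Air Drinking minus Air NonDrinking, and 1 to 2 in CeA for CIE Drinking minus CIE NonDrinking.

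Each mouse number stood in 1 treatment group, so comparisons within a region could not be paired. For the differences between regions, a replicate block on the mouse number (consensus correlation 0.01457) kept the counts of members called, with 3 for PFC minus CeA and 1 for PFC minus HPC in CIE Drinking minus Air NonDrinking.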
